A study of Mus musculus with 18 samples.

Results

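The enzymes that hydroxylate collagen chains and crosslink the finished fibers were followed in mouse 10T1/2 cells: the 5 lysyl oxidases (Lox, Loxl1, Loxl2, Loxl3 and Loxl4), the 3 lysyl hydroxylases (Plod1, Plod2 and Plod3) and 2 catalytic α subunits of collagen prolyl 4-hydroxylase (P4ha1 and P4ha2). These 10 genes were taken by name from a table of 54532 genes, and all 10 were among the 14317 genes that had enough counts to be tested. The 10T1/2 line (CH310T1/2 in the sample labels) is a multipotent mouse fibroblast line, listed in the labels as mesenchymal stem cells. Poly(A) RNA was sequenced from 18 libraries in 6 groups of 3: wild-type (WT) cells, FOXS1 knockout (KO) clone 1 and FOXS1 KO clone 2, each uninduced (labelled Control) or stimulated. The cells were grown to 2 days past confluence, and stimulated cells received TGF-β1 (1 nM, 12 h) and after it, for 48 h, the adipogenic mixture DMII, which holds insulin, indomethacin, dexamethasone and 3-isobutyl-1-methylxanthine. No group received only TGF-β1 or only DMII, so the parts played by each in the stimulated libraries cannot be told apart. The study also describes overnight serum starvation before TGF-β1 and a change of medium for DMII. Its text does not say whether uninduced cells shared these steps or the added culture time, so these cannot be told apart from the stimuli. FOXS1 is a forkhead transcription factor, and each KO line is 1 clone made with CRISPR-Cas9, so an effect of losing FOXS1 and a trait of that clone cannot be told apart within either line.

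Fibrillar collagen is modified in steps. In the endoplasmic reticulum, prolyl 4-hydroxylases hydroxylate prolines, which makes the triple helix stable at body temperature, and lysyl hydroxylases hydroxylate lysines, which sets the kind of crosslink that can form later. Outside the cell, lysyl oxidases oxidize lysines and hydroxylysines of collagen and elastin to reactive aldehydes, and these join neighboring molecules into an insoluble matrix. TGF-β1 is a known inducer of several of these enzymes in fibroblasts and myofibroblasts, and their activity contributes to the stiffness of fibrotic tissue.

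Library totals ran from 15576685 to 42005596 counts, with a median of 20178953.5. Foxs1 counts were higher, not lower, with the KO label: WT libraries held 31 to 64 counts and KO-labelled libraries 412 to 1436 counts. The log2 differences from WT were 3.55 and 3.36 in uninduced and 4.44 and 3.99 in stimulated clones 1 and 2. Gene totals therefore do not show the edit, and every direction drawn between genotypes rests on the labels. The study reports loss of FOXS1 protein in both clones by western blot, and disruption of the locus by sequencing of genomic DNA. Gene counts cannot repeat these checks. Of 8 fibroblast and mesenchymal markers, 6 to 7 reached a mean of 1 CPM (read counts scaled for library size by the TMM method) in each group, with a summed level of 3480 to 8933 CPM per library, although Nt5e stayed under that level in every group and Thy1 in clone 2. Summed endothelial, epithelial and leukocyte markers stayed at or under 7.92 CPM in every library, and the summed adipocyte markers were at 0.293 to 1.22 CPM in stimulated WT libraries, 30.5 to 43.0 CPM in stimulated clone 1 and 2.71 to 4.64 CPM in stimulated clone 2. Of 4 osteoblast and chondrocyte markers, 1 to 2 reached a mean of 1 CPM in each group, with a summed level of 390 to 2264 CPM that was nearly all Col2a1. The part of these markers in the results was not tested.

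The lysyl oxidase transcript Lox was the most abundant member in every group. Divided by gene length, mean Lox levels were 265 CPM per kb in uninduced WT cells, 382 in uninduced clone 1 and 460 in uninduced clone 2, and 1169, 932 and 2259 CPM per kb in the stimulated cells of the same lines. Loxl1 came next in all 3 uninduced groups, at 167, 112 and 101 CPM per kb. Loxl2 was the least abundant in every group, at 0.126 to 0.561 CPM per kb and only 684 counts over all 18 libraries. In between, the order differed between groups. P4ha1 had rank 5 in uninduced WT cells at 38.7 CPM per kb, where its libraries overlapped those of Plod1 at 40.0, rank 4 in stimulated WT cells at 88.1, rank 3 in uninduced clone 2 at 86.2 and rank 2 in stimulated clone 2 at 183 CPM per kb. Plod2 had rank 6 in uninduced WT cells, at 30.9 CPM per kb, and rank 3 in stimulated WT cells, at 190 CPM per kb. Neighbors in the order whose libraries overlapped were Plod3 and Plod1, Loxl3 and P4ha2, and P4ha2 and Loxl4 in uninduced clone 1, Loxl3 and Plod3 in stimulated clone 1, P4ha2 and Loxl3 in uninduced clone 2, and Loxl1 and Plod1 in stimulated clone 2.

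**Figure D1:**
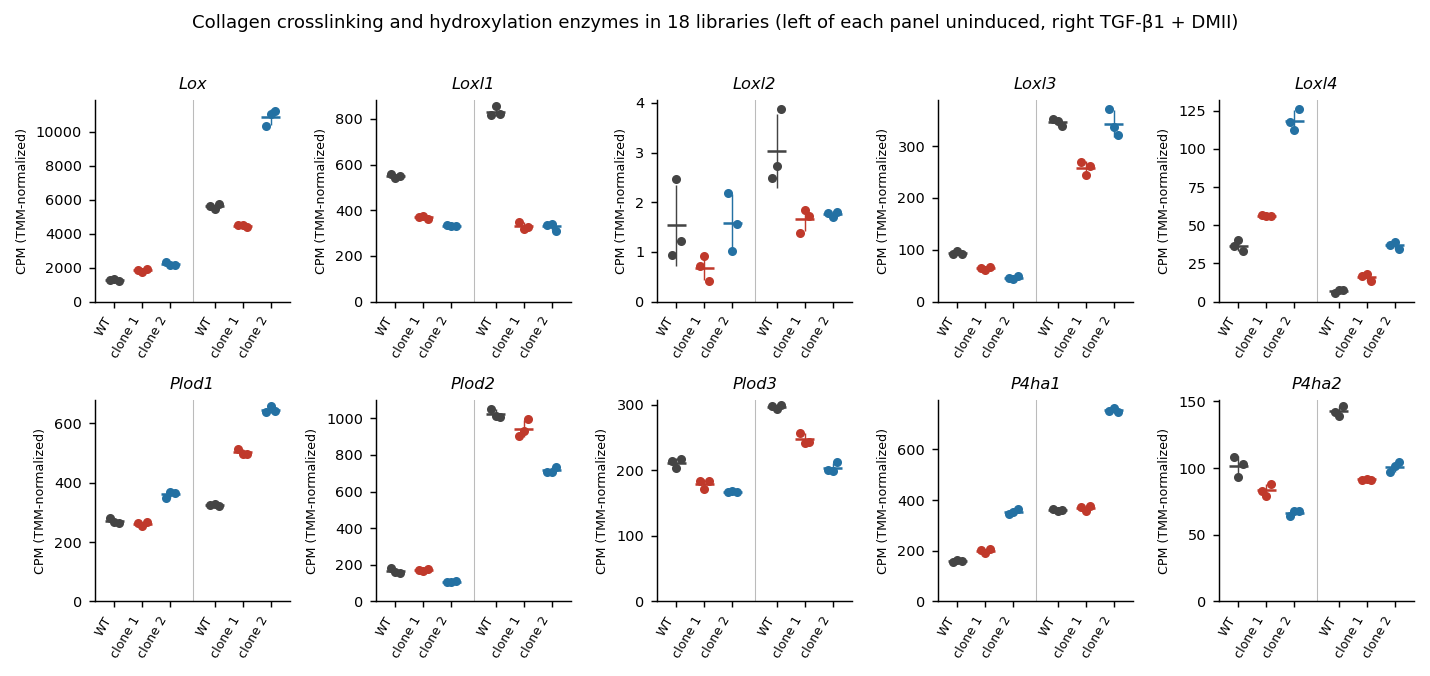
TMM-normalized CPM (y axis, linear, a separate scale per gene) of the 10 genes in each of 18 libraries (points), with group means (horizontal bars) and SD (vertical bars, n = 3), for uninduced cells to the left and TGF-β1 + DMII to the right of the gray line in each panel. Stimulated WT libraries hold 818 to 854 CPM of Loxl1 against 310 to 349 CPM in both stimulated clones, while Loxl4 is lowest in stimulated WT cells and highest in uninduced clone 2.

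Promoter sequences from RefSeq were at hand for 5 members (Loxl4, Plod1, Plod3, P4ha1 and P4ha2). The 250 bases before the RefSeq start of 4 of them are shown. Loxl4, Plod1 and P4ha1 were chosen because they had the 3 highest log2 differences from WT among the members in stimulated clone 2. P4ha2, the other α subunit among the members, is shown because its difference was negative. Capitals mark the core of the element bound by hypoxia-inducible factors (HIF), ACGTG or GCGTG on either strand. Coordinates are GRCm38.p6: chr19:42612807-42613056 on the minus strand for Loxl4, chr4:147936777-147937026 on the minus strand for Plod1, chr10:59323046-59323295 on the plus strand for P4ha1 and chr11:54100674-54100923 on the plus strand for P4ha2.
Loxl4: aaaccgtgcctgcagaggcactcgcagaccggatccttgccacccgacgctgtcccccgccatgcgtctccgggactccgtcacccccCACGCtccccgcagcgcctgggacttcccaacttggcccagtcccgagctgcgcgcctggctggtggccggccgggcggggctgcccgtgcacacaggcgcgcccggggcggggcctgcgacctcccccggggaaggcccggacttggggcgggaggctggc
Plod1: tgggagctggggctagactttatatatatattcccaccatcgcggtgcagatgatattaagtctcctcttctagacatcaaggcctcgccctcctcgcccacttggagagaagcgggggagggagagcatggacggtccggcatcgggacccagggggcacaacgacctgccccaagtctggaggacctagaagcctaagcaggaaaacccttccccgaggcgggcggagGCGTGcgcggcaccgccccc
P4ha1: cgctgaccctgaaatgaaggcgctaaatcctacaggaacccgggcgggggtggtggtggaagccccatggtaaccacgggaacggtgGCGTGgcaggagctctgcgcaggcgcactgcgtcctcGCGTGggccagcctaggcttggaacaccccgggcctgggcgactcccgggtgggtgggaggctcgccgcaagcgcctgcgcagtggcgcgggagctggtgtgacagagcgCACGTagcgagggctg
P4ha2: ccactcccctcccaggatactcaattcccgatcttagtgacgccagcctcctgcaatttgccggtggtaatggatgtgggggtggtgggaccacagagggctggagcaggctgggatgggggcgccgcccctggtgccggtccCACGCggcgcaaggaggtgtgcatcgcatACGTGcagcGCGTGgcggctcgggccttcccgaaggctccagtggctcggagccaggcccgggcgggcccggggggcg
On both strands, ACGTG lay in 3 of the 5 windows (P4ha1, P4ha2 and Plod3) and in 16.6% of 32851 RefSeq promoter windows of the same length, and GCGTG lay in all 5 windows and in 28.2% of all. No stretch counted for both letter strings in these 5 windows. The windows had a GC content of 55.6% to 76.0%, above the median of 52.4% over all windows, and the part of GC content in the matches was not tested. The forkhead core TGTTTAC lay in 0 of 5 windows and in 3.17% of all, and the SMAD core GTCTG in 2 of 5 (Loxl4 and Plod1) and in 42.2% of all. These are matches of letters, not measured sites. The P4ha2 window lies inside the gene as counted, which starts at 54100095, so its matches are not upstream of that start.

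In WT cells, Lox, Loxl3, Plod2 and P4ha1 rose after TGF-β1 + DMII and Loxl4 fell. A gene was called changed at an adjusted p below 0.05 and a change of more than 1 on the log2 scale, in edgeR's quasi-likelihood test, with p-values adjusted by Benjamini-Hochberg over all 14317 genes. By this rule 4 of 10 members were called higher, where 6.25% of all tested genes were, and 1 of 10 lower, where 13.6% of all were. The median log2 change of the 10 members was 0.79, beside -0.04 over all tested genes.

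Plod2, the lysyl hydroxylase of collagen telopeptides whose product favors stable pyridinoline crosslinks, had the largest increase of the members in WT cells. Its levels were 182, 160 and 158 CPM in the uninduced libraries and 1053, 1012 and 1006 CPM in the stimulated libraries. No uninduced library came near the stimulated range, and the log2 change was 2.62 (SE 0.0521, adjusted p = 1.66e-26), a 6.15-fold increase. The gene lies at chr9:92542223-92608428 (GRCm38, plus strand), and counts per gene do not separate its splice forms.

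Lox, the founding lysyl oxidase, went from 1288, 1312 and 1227 CPM in uninduced WT libraries to 5625, 5479 and 5764 CPM in stimulated ones, a log2 change of 2.14 (SE 0.0451, adjusted p = 6.07e-26). Loxl3, a lysyl oxidase needed for palate and spine development, went from 91.9, 97.7 and 92.0 CPM to 352, 349 and 339 CPM, a log2 change of 1.88 (SE 0.0562, adjusted p = 2.78e-22). P4ha1, the main α subunit in most fibroblasts, went from 155, 163 and 159 CPM to 366, 358 and 362 CPM, a log2 change of 1.18 (SE 0.0428, adjusted p = 3.01e-20). In each of these 3 genes every stimulated library lay above every uninduced one. Loxl4, a lysyl oxidase with scavenger receptor domains, went the other way, from 36.7, 40.1 and 33.1 CPM to 5.38, 7.30 and 7.30 CPM. Its log2 change was -2.45 (SE 0.109, adjusted p = 6.36e-18), a 5.46-fold lower level.

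The other 5 members passed the adjusted p threshold in WT cells without passing the fold threshold, so all 10 members passed the first, as did 60.7% of all tested genes. Loxl1, which acts mainly on elastic fibers, had a log2 change of 0.59 (SE 0.0432), from 561, 543 and 551 CPM to 818, 854 and 823 CPM. Plod3, which also carries glycosyltransferase activity, had a log2 change of 0.49 and P4ha2 of 0.49, and Plod1, the main hydroxylase of helical lysines, of 0.27. Loxl2 had a log2 change of 0.98 (SE 0.355), from 16, 47 and 32 counts to 51, 63 and 86 counts, where the range of uninduced libraries reached close to that of the stimulated ones.

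Lox, Loxl3 and Plod2 rose and Loxl4 fell in the clones too, with different sizes. In clone 1, 4 of 10 members were called higher (Lox, Loxl2, Loxl3 and Plod2), beside 5.95% of all tested genes, and 1 lower (Loxl4), beside 10.7% of all. In clone 2, 4 of 10 were called higher (Lox, Loxl3, Plod2 and P4ha1), beside 6.46% of all, and 1 lower (Loxl4), beside 11.2% of all. The adjusted p threshold alone was passed by 10 members in clone 1 and 8 in clone 2, beside 54.5% and 55.8% of all. The median log2 change of the members was 0.91 in clone 1 and 0.72 in clone 2, beside -0.02 over all genes in each. Plod2 reached 905, 928 and 996 CPM in stimulated clone 1, from 171, 169 and 178 CPM, and 705, 708 and 737 CPM in stimulated clone 2, from 107, 105 and 112 CPM. These were log2 changes of 2.45 (SE 0.0518) and 2.73 (SE 0.0527), and the difference from the WT change did not pass the threshold in either clone (-0.17, adjusted p = 0.0637 in clone 1, 0.11, adjusted p = 0.258 in clone 2, with 95% intervals of -0.31 to -0.03 and -0.03 to 0.25). The Loxl2 call in clone 1 rested on 14, 17 and 8 counts against 26, 50 and 38 counts, and without uninduced clone 1 replicate 3 the log2 change was 1.03 and lost its call (adjusted p = 0.0548).

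**Figure D2:**
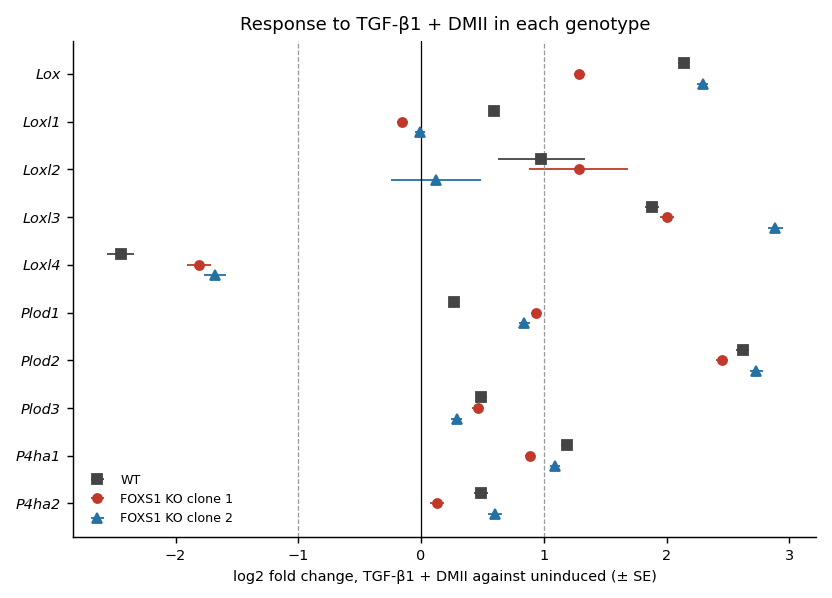
Log2 fold change between TGF-β1 + DMII and uninduced cells (x axis, points, with SE bars) of the 10 genes in WT cells, FOXS1 KO clone 1 and FOXS1 KO clone 2, with dashed lines at the fold threshold of 1 on the log2 scale. Plod2, Lox and Loxl3 lie above 1 and Loxl4 below -1 in all 3 lines, and the Loxl1 change is 0.59 in WT cells against -0.15 and -0.01 in the clones.

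Whether the response itself differed from that of WT cells was tested by the interaction of genotype and stimulation. In clone 1, 0 of 10 members were called in either direction by edgeR, beside 5.34% of all tested genes with a more positive and 3.46% with a more negative change. DESeq2 also called 0, and 7 members had an unadjusted p below 0.05 in edgeR. In clone 2, 1 of 10 members (Loxl3) was called with a more positive change, beside 4.89% of all, and 0 with a more negative change, beside 2.96% of all. DESeq2 made the same 1 call there, and 2 members with a more negative change had an unadjusted p below 0.05. Both tests share the WT libraries.

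Below the fold threshold, several differences in response were larger than the spread between libraries. The adjusted p threshold alone was passed by 6 members in clone 1 and 5 in clone 2, beside 31.6% and 31.2% of all tested genes. Loxl1 was higher in stimulated than in uninduced WT cells but not in the clones: the clone 1 log2 change was -0.15 and the clone 2 change -0.01, so the difference from WT was -0.74 (SE 0.0613, adjusted p = 3.52e-11) and -0.60 (SE 0.0613, adjusted p = 3.82e-09). Plod1 changed more in the clones than in WT cells, by 0.67 (SE 0.0583, adjusted p = 1.27e-10) in clone 1 and 0.57 (SE 0.0581, adjusted p = 3.35e-09) in clone 2. Lox split the clones. Its increase was 0.85 smaller in clone 1 than in WT cells on the log2 scale, at -0.85 (SE 0.0614, adjusted p = 1.86e-12), and in clone 2 the difference was 0.15 (SE 0.0612, adjusted p = 0.055). Loxl3 changed by 2.89 on the log2 scale in clone 2, a difference from WT of 1.00 (SE 0.079, adjusted p = 1.66e-11), and by 2.00 in clone 1, a difference of 0.12 (adjusted p = 0.264). The Loxl3 difference sits on the fold threshold, and the call was lost, at 0.94 to 0.98, without stimulated WT replicate 3, uninduced WT replicate 2, uninduced clone 2 replicate 1 or 2, or stimulated clone 2 replicate 1.

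Between KO and WT cells, the comparison at which the study aims, the called members in stimulated cells were Loxl1 and Loxl4 in both clones, in opposite directions, and P4ha1 in clone 2. In stimulated clone 1, 1 of 10 members was called higher, beside 9.42% of all tested genes, and 1 lower, beside 9.6% of all. In stimulated clone 2, 2 of 10 were called higher, beside 7.95% of all, and 1 lower, beside 8.94% of all. In uninduced clone 1, 0 of 10 were called higher, beside 6.32% of all, and 1 (Loxl2) lower, beside 8.73% of all; DESeq2 called 0 higher there too, and 3 had an unadjusted p below 0.05 in edgeR. In uninduced clone 2, 2 of 10 (Loxl4 and P4ha1) were called higher, beside 5.54% of all, and 1 (Loxl3) lower, beside 9.56% of all. The adjusted p threshold alone was passed by 8 and 9 members in uninduced clones 1 and 2, beside 53.5% and 53.2% of all, and by 9 and 8 in stimulated clones 1 and 2, beside 58.9% and 56% of all. A single call among 10 members is a share of 10%, and the shares were not tested against the background. Median log2 differences of the members from WT were -0.14 and -0.13 in uninduced clones 1 and 2, beside -0.01 and -0.02 over all genes, and -0.30 and -0.26 in the stimulated clones, beside -0.02 and -0.01.

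Loxl1 (chr9:58287738-58313186, minus strand) was lower in the clones. Stimulated WT libraries held 818, 854 and 823 CPM, stimulated clone 1 libraries 349, 319 and 328 CPM, and stimulated clone 2 libraries 337, 342 and 310 CPM. The clone libraries overlapped one another and lay far under the WT libraries. The log2 difference from WT was -1.32 (SE 0.0439, adjusted p = 3.33e-21) for clone 1 and -1.34 (SE 0.044, adjusted p = 3.45e-21) for clone 2, a 2.50-fold and a 2.52-fold lower level. In uninduced cells the levels were 370, 374 and 364 CPM in clone 1 and 335, 329 and 331 CPM in clone 2, against 561, 543 and 551 CPM in WT cells, with log2 differences of -0.58 and -0.73 that passed the adjusted p threshold only. Loxl1 is among the genes the study singled out from these same libraries, so its direction here is not independent evidence.

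Loxl4 (chr19:42593982-42612813, minus strand) was higher in the clones, at low levels. Stimulated libraries held 5.38, 7.30 and 7.30 CPM in WT cells, 16.9, 17.8 and 13.4 CPM in clone 1 and 37.2, 39.0 and 34.6 CPM in clone 2. The 3 lines did not overlap, with clone 2 highest. The log2 difference from WT was 1.26 (SE 0.115, adjusted p = 1.03e-10) in clone 1 and 2.46 (SE 0.11, adjusted p = 7.69e-18) in clone 2. In uninduced cells WT libraries held 36.7, 40.1 and 33.1 CPM, clone 1 libraries 56.6, 56.1 and 56.0 CPM and clone 2 libraries 118, 112 and 126 CPM, in the same order of lines. The differences there were 0.62 (SE 0.0899, adjusted p = 9.3e-07) and 1.70 (SE 0.0886, adjusted p = 5.01e-16), of which only the clone 2 value passed the fold threshold.

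P4ha1 (chr10:59323296-59373304, plus strand) separated the clones from each other. In stimulated cells WT libraries held 366, 358 and 362 CPM and clone 1 libraries 373, 357 and 378 CPM, which overlapped, while clone 2 libraries held 752, 764 and 746 CPM. The difference from WT was 0.03 (95% interval -0.06 to 0.11, adjusted p = 0.61) in clone 1 and 1.06 (SE 0.0419, adjusted p = 3.14e-19) in clone 2. The latter call was lost when the test was made against the fold threshold itself (edgeR's glmTreat, adjusted p = 0.21). Uninduced clone 2 libraries, at 345, 355 and 364 CPM, were already close to stimulated WT libraries, and their log2 difference from uninduced WT cells was 1.15 (SE 0.0427, adjusted p = 1.02e-19). P4ha2 (chr11:54100095-54131665, plus strand), the other α subunit among the members, went the opposite way in clone 2. Its stimulated levels were 142, 139 and 147 CPM in WT cells, 91.3, 92.1 and 90.8 CPM in clone 1 and 96.7, 101 and 104 CPM in clone 2, with log2 differences of -0.64 (SE 0.0553) and -0.50 (SE 0.0557) that passed the adjusted p threshold only.

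**Figure D3:**
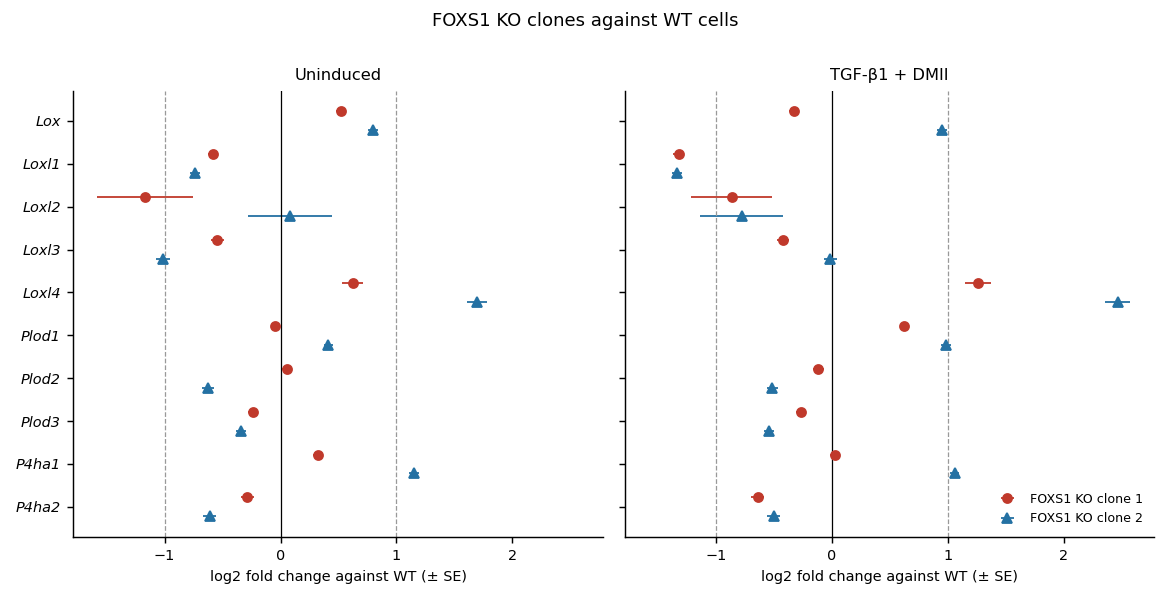
Log2 fold change against WT (x axis, points, with SE bars) of the 10 genes in FOXS1 KO clone 1 and clone 2, for uninduced cells (left) and TGF-β1 + DMII (right), with dashed lines at the fold threshold of 1 on the log2 scale. Under stimulation Loxl1 lies at -1.32 and -1.34 and Loxl4 at 1.26 and 2.46, while P4ha1 and Lox lie at 1.06 and 0.95 in clone 2 and at 0.03 and -0.33 in clone 1.

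Among the lysyl hydroxylases, no member was called between KO and WT cells, and Plod1 came closest. Plod1 (chr4:147909753-147936767, minus strand) stood at 326, 330 and 323 CPM in stimulated WT libraries, 515, 496 and 498 CPM in clone 1 and 639, 659 and 641 CPM in clone 2. The 3 lines did not overlap, and the log2 differences from WT were 0.62 (SE 0.041, adjusted p = 5.77e-14) and 0.99 (SE 0.0413, adjusted p = 1.21e-18). Uninduced clone 1 libraries, at 265, 255 and 267 CPM, overlapped WT libraries at 280, 267 and 265 CPM (log2 difference -0.04, 95% interval -0.12 to 0.04), and clone 2 libraries held 347, 371 and 364 CPM. Plod2 and Plod3 were on the lower side in clone 2, with log2 differences of -0.51 and -0.54 in stimulated and -0.62 and -0.34 in uninduced cells, all past the adjusted p threshold only. Plod3 (chr5:136987019-136996648, plus strand) ranged from 294 to 300 CPM in stimulated WT libraries and from 199 to 213 CPM in stimulated clone 2.

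Lox was not called against WT in either clone, but the clones lay on opposite sides of WT cells once stimulated. Stimulated libraries held 4525, 4524 and 4398 CPM in clone 1 and 10319, 11031 and 11248 CPM in clone 2, beside 5479 to 5764 CPM in WT cells. The log2 differences from WT were -0.33 (SE 0.0433, adjusted p = 1.43e-07) and 0.95 (SE 0.0436, adjusted p = 1.13e-17). In uninduced cells both clones lay above WT cells, at 1842, 1725 and 1939 CPM in clone 1 and 2328, 2178 and 2139 CPM in clone 2, with differences of 0.52 and 0.80.

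The remaining lysyl oxidases were lower or close to WT cells. Loxl3 (chr6:83034173-83052562, plus strand) held 64.5, 62.0 and 66.4 CPM in uninduced clone 1 and 45.2, 44.6 and 50.0 CPM in uninduced clone 2, under 91.9 to 97.7 CPM in WT cells. The clone 2 difference of -1.02 (SE 0.0584, adjusted p = 3.98e-15) was called, and fell under the fold threshold, at -0.98 to -0.99, without uninduced WT replicate 2 or uninduced clone 2 replicate 1 or 2. After stimulation clone 2 libraries, at 372, 336 and 321 CPM, overlapped WT libraries (log2 difference -0.01, 95% interval -0.12 to 0.09), and clone 1 libraries held 269, 244 and 261 CPM. Loxl2 (chr14:69609068-69695834, plus strand) had a called difference of -1.17 (SE 0.411, adjusted p = 0.0176) in uninduced clone 1, from 8 to 17 counts per library against 16 to 47. That call was lost without uninduced WT replicate 2 (-0.68, adjusted p = 0.189) or uninduced clone 1 replicate 3 (-0.91, adjusted p = 0.0938). Part of the exonic sequence of Loxl3, Plod3 and Plod2 lies opposite another gene with counts, with 535 bases shared with Htra2, 529 with Znhit1 and 346 with Gm38391, or 11.6%, 11.7% and 6.42% of their exonic length, and the strand setting of the counting is not given in the sources used here, so reads of these pairs cannot be told apart there.

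The clones were also set directly against each other, and every called member was lower in clone 1. In uninduced cells 2 of 10 members (Loxl2 and Loxl4) were called lower in clone 1 than in clone 2, beside 3.78% of all tested genes, and 0 higher, beside 4.89% of all. In stimulated cells 3 of 10 (Lox, Loxl4 and P4ha1) were called lower in clone 1, beside 4.48% of all, and 0 higher, beside 5.5% of all. The adjusted p threshold alone was passed by 9 and 8 members, beside 42.2% and 45.4% of all. For both counts of 0, DESeq2 also gave 0, and 5 and 2 members had an unadjusted p below 0.05 in edgeR. The stimulated log2 differences, clone 1 minus clone 2, were -1.28 (SE 0.0439, adjusted p = 5.28e-20) for Lox, -1.20 (SE 0.0984, adjusted p = 2.49e-11) for Loxl4 and -1.03 (SE 0.0419, adjusted p = 2.82e-18) for P4ha1. Loxl1 did not differ beyond its error between the stimulated clones, at 0.01 (95% interval -0.07 to 0.10). The uninduced Loxl2 difference of -1.25 (SE 0.401) lost its call without uninduced clone 1 replicate 3 (-0.999, adjusted p = 0.0761) or uninduced clone 2 replicate 1 (-0.91, adjusted p = 0.127), which is also the deepest library.

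Within each family, levels divided by gene length show how the make-up of the transcripts moved. For every member but Lox (4810 against 4778 bases), this length equals that of all annotated exons joined. It is not the length of the transcript expressed, so ranks, shares and sums across genes depend on this divisor. Lox made up 57.4% ± 0.77 (SD, n = 3) of lysyl oxidase transcripts per length in uninduced WT cells and 78.0% ± 0.751 after stimulation. The same share was 73.2% ± 1.31 and 85.3% ± 0.564 in clone 1, and 76.8% ± 0.858 and 92.5% ± 0.68 in clone 2. The share of Loxl1 was 36.2% ± 0.996 in uninduced and 16.8% ± 0.624 in stimulated WT cells, 21.5% ± 1.17 and 9.22% ± 0.355 in clone 1, and 16.8% ± 0.436 and 4.10% ± 0.321 in clone 2. Within a condition, each clone had a larger share of Lox and a smaller share of Loxl1 than WT cells. The summed lysyl oxidase level went from 462 ± 10.2 to 1499 ± 24.0 CPM per kb in WT cells, from 521 ± 21.3 to 1093 ± 17.8 in clone 1, and from 599 ± 20.9 to 2443 ± 92.4 in clone 2.

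The lysyl hydroxylases moved from a mixed make-up to one led by Plod2. Plod2 was 26.2% ± 1.22 of the family per length in uninduced and 62.5% ± 0.548 in stimulated WT cells, 28.9% ± 0.445 and 57.5% ± 1.71 in clone 1, and 18.2% ± 0.584 and 48.6% ± 0.469 in clone 2. Plod1 kept a larger share in the stimulated clones, 24.5% ± 0.848 and 34.9% ± 0.841, than in stimulated WT cells, 15.9% ± 0.309. The summed level of the family was close in the 3 lines, at 304 ± 4.85, 304 ± 7.01 and 274 ± 4.49 CPM per kb in stimulated WT, clone 1 and clone 2 cells. For the α subunits the share of P4ha1 was 70.4% ± 2.09 in uninduced and 79.4% ± 0.411 in stimulated WT cells, 78.4% ± 0.397 and 86.0% ± 0.449 in clone 1, and 89.0% ± 0.173 and 91.9% ± 0.325 in clone 2. The summed α subunit level in stimulated clone 2, 199 ± 2.19 CPM per kb, was 1.80 times that of stimulated WT cells, 111 ± 1.37, and 104 ± 2.56 CPM per kb was found in stimulated clone 1.

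**Figure D4:**
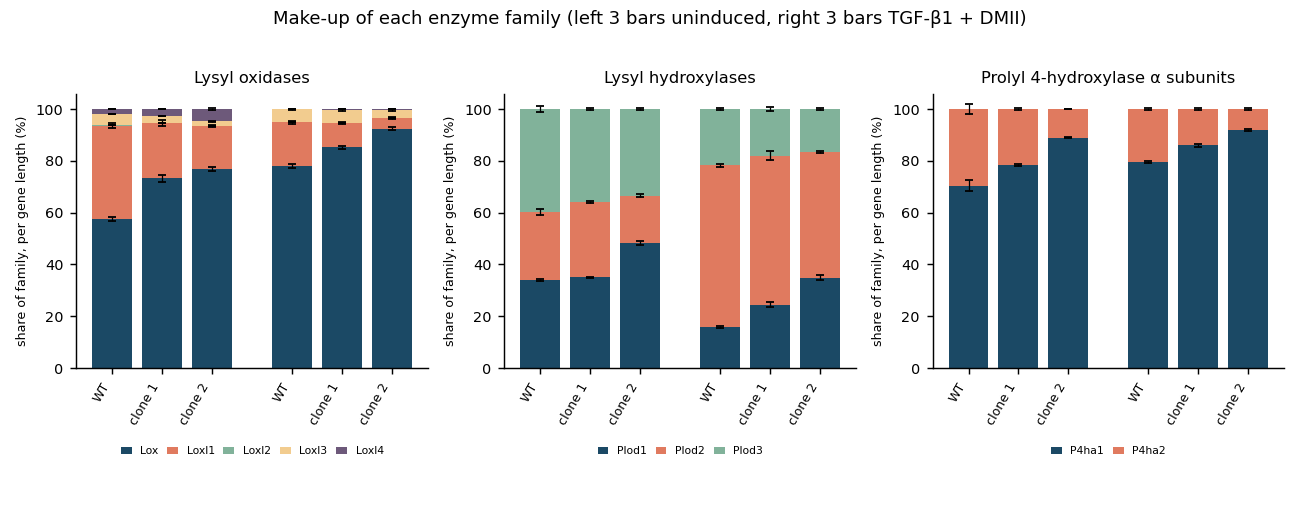
Share of each gene in the summed level of its family (y axis, percent of CPM per kb, mean of 3 libraries with SD bars at the top of each block) in WT cells, FOXS1 KO clone 1 and clone 2, uninduced (left 3 bars) and TGF-β1 + DMII (right 3 bars). The Lox block grows from 57.4% to 78.0% in WT cells and reaches 92.5% in stimulated clone 2, and the Plod2 block grows from 26.2% to 62.5% in WT cells. The α subunit panel holds P4ha1 and P4ha2 only, without P4ha3.

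Around these enzymes, a list of 30 other genes of collagen maturation was read in the same fit, and 27 had enough counts. In the WT response 6 were called higher (22.2%, beside 6.25% of all tested genes) and 2 lower (7.41%, beside 13.6%), with a median log2 change of 0.33. Against WT cells, uninduced clone 1 had 2 called higher (7.41%, beside 6.32% of all) and 5 lower (18.5%, beside 8.73%), and stimulated clone 1 had 0 higher (beside 9.42%) and 4 lower (14.8%, beside 9.6%). Uninduced clone 2 had 1 higher (3.70%, beside 5.54%) and 7 lower (25.9%, beside 9.56%), and stimulated clone 2 had 0 higher (beside 7.95%) and 5 lower (18.5%, beside 8.94%). For the counts of 0, edgeR gave 8 and 4 genes higher at an unadjusted p below 0.05, and DESeq2 called 4 and 5 of the listed genes in either direction. Medians against WT were -0.17 and -0.25 in uninduced and -0.24 and -0.40 in stimulated clones 1 and 2, beside -0.02 to -0.01 over all genes. In stimulated cells the called genes lay among the 6 tested genes of propeptide processing, with 3 in each clone, and the 3 tested other crosslinking enzymes, with 1 in each clone, and in clone 2 also 1 of the 8 other hydroxylases and partners (P3h1, a prolyl 3-hydroxylase named here after its value was seen).

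The called genes of the list that were lower in each stimulated clone were Tll1, Adamts2 and Tgm2. Tgm2, a transglutaminase that forms a different crosslink, had the largest increase of the list in WT cells, from 3.98 ± 0.649 to 17.0 ± 2.21 CPM (log2 change 2.096, SE 0.232). It was at 0.435 ± 0.215 and 0.336 ± 0.148 CPM in uninduced and stimulated clone 1. In clone 2 it rose from 0.300 ± 0.21 to 0.883 ± 0.0898 CPM (log2 change 1.32, SE 0.406, adjusted p = 0.00666). Its log2 differences from stimulated WT cells were -5.63 (SE 0.316) and -4.26 (SE 0.287). Adamts2, the protease that removes the amino-terminal propeptide of collagen, was at 183 ± 0.532 CPM in stimulated WT cells, 65.8 ± 4.58 in clone 1 and 50.4 ± 4.05 in clone 2, log2 differences of -1.48 (SE 0.0633) and -1.86 (SE 0.0656). Tll1, a tolloid-like protease that acts on the carboxy-terminal propeptide and also cleaves lysyl oxidase proenzymes, was at 22.5 ± 1.24 CPM in stimulated WT cells, 5.24 ± 0.821 in clone 1 and 1.65 ± 0.369 in clone 2, differences of -2.09 (SE 0.21) and -3.75 (SE 0.253).

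In uninduced cells, the list genes called lower in each clone were Colgalt2, Fkbp14, Adamts2, Adamts14 and Tgm2, and Pcolce2 was called higher. Pcolce2, an enhancer of carboxy-terminal propeptide removal, was at 41.6 ± 5.89 CPM in WT cells against 202 ± 5.72 and 158 ± 7.64 CPM in clones 1 and 2, and after stimulation at 35.03 ± 2.18, 44.6 ± 4.38 and 47.7 ± 1.34 CPM. Fkbp14, a prolyl isomerase of the endoplasmic reticulum, was at 132 ± 7.87, 59.8 ± 4.42 and 50.0 ± 2.67 CPM in uninduced WT, clone 1 and clone 2 cells. Adamts14, a relative of Adamts2, was at 15.98 ± 1.06, 1.29 ± 0.502 and 5.21 ± 0.556 CPM. Colgalt2, a collagen galactosyltransferase, had 101 counts over the 3 uninduced WT libraries and 0 in clone 1, at least 29.6-fold lower against a floor of 3 counts over the group, and 32 counts in clone 2. It also had the most negative change of the list in the WT response, to 6 counts over 3 libraries (log2 change -4.01, SE 0.787). The list medians cannot move when Colgalt2 is set at its bound, since its value and its bound both lie under them.

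**Figure D5:**
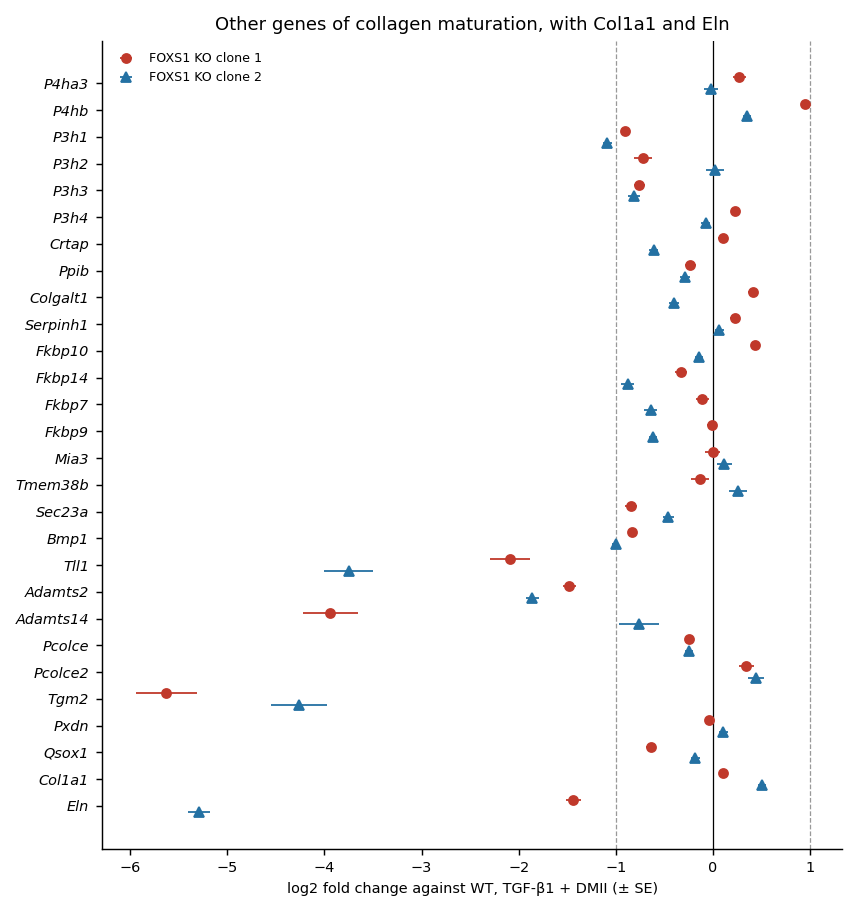
Log2 fold change against stimulated WT cells (x axis, points, with SE bars) of 26 tested genes of the collagen maturation list, without Colgalt2 which had no counts in the stimulated clones, and of Col1a1 and Eln, in FOXS1 KO clone 1 and clone 2, with dashed lines at the fold threshold of 1 on the log2 scale. Tgm2, Tll1, Adamts2 and Eln lie under -1 in both clones, and no gene lies above 1.

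Of the substrates, 6 genes of fibrillar collagen chains and elastin were followed, and all 6 were tested. In the WT response 4 of the 6 (66.7%, beside 6.25% of all tested genes) were called higher, with a median log2 change of 1.39. Col1a1, the main fibrillar collagen chain, went from 9426 ± 277 to 28863 ± 542 CPM in WT cells, from 11905 ± 429 to 30965 ± 1228 in clone 1 and from 14852 ± 415 to 40897 ± 2634 in clone 2, and was not called against WT in either clone. It was the only substrate with a positive difference from WT in the stimulated clones, 0.10 and 0.50 on the log2 scale. By the adjusted p alone, the other 5 of 6 were lower in stimulated clone 1 and 4 in stimulated clone 2, beside 4364 and 4049 of all 14317 tested genes. Medians over all 6 were -0.60 and -0.24. All 6 had a more negative response in clone 1 than in WT cells, with a median difference of -0.45. In clone 2 the response was more negative for 4 and more positive for 2, with a median difference of -0.14. Eln, elastin, was the 1 substrate that also passed the fold threshold in the stimulated clones, at 30.6 ± 2.98 CPM in clone 1 and 2.09 ± 0.422 CPM in clone 2 against 82.8 ± 2.45 CPM in WT cells. The log2 differences were -1.44 (SE 0.0744, adjusted p = 1.90e-16) and -5.29 (SE 0.112, adjusted p = 6.56e-26). In uninduced cells Eln was at 105 ± 7.9 CPM in WT cells and 103 ± 2.48 in clone 1 and was called lower in clone 2, at 14.8 ± 0.873 CPM.

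Several of the enzymes, among them Lox, Plod2, P4ha1 and P4ha2, are known targets of HIF, so 12 other known HIF targets were read beside the promoter matches, and 11 had enough counts. Against stimulated WT cells, 4 were called higher (36.4%, beside 7.95% of all tested genes) and 1 lower (9.09%, beside 8.94%) in clone 2, with a median log2 difference of 0.67. In clone 1, 1 was called higher and 1 lower (9.09% each, beside 9.42% and 9.6% of all), with a median of 0.16. In uninduced cells the medians were -0.01 in clone 2 and -0.14 in clone 1. The median changes on stimulation were 0.03, 0.36 and 0.89 in WT, clone 1 and clone 2 cells. In the same order, 2, 1 and 5 were called higher on stimulation (18.2%, 9.09% and 45.5%, beside 6.25%, 5.95% and 6.46% of all). In each line 2 were called lower (18.2%, beside 13.6%, 10.7% and 11.2% of all). The 4 members whose promoter windows are printed above had stimulated differences from WT of 2.46 (Loxl4), 0.99 (Plod1), 1.06 (P4ha1) and -0.50 (P4ha2) in clone 2. Loxl4, Plod1 and P4ha1 were printed because of these same values, so the values and the matches are not independent. In uninduced clone 2 the differences of the 4 were 1.70, 0.41, 1.15 and -0.61. The window of Plod3, read but not printed, also held ACGTG and GCGTG. Plod3 differences from WT in clone 2 were -0.54 in stimulated and -0.34 in uninduced cells. Of the named HIF targets without a window, Lox was at 0.95 and Plod2 at -0.51 in stimulated clone 2. In stimulated clone 1, Loxl4, Plod1, P4ha1, P4ha2 and Plod3 were at 1.26, 0.62, 0.03, -0.64 and -0.26. The part of HIF in any of these values was not tested.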

How the data were processed

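RNA from 18 libraries of 10T1/2 cells was sequenced as paired-end poly(A) libraries, and the authors aligned reads to GRCm38/mm10 with HISAT2. The authors deposited raw gene counts for all 18 libraries, with gene lengths, in 1 table. The counting program, annotation release and strandedness were not given in the sources used here. Groups followed genotype and treatment in the labels. Nothing says whether replicates came from separate cultures, so p-values measure the spread between libraries, which may be technical. Replicate pairs differed by more than sampling noise (chi-square per degree of freedom 3.13 to 14.7).

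Counts were filtered with filterByExpr (minimum count 10), normalized by TMM and fitted with one mean per group over all 18 libraries in edgeR 4.0.16 (R 4.3.3; robust quasi-likelihood test, Benjamini-Hochberg adjustment over 14317 genes). A call needed an adjusted p below 0.05 together with a log2 fold change beyond 1 in size. SE values are on the log2 scale, 95% intervals are the estimate ± 1.96 SE, and values after ± are SD over 3 libraries. CPM values are TMM-normalized and, between genes, divided by gene length. The script was tested on simulated data. Alternatives were DESeq2 1.42.0 (the study's tool), its size factors, other filters and thresholds, only the groups compared, a replicate block and each library left out. The members, lists and tests were chosen with earlier results of these data known. Named genes were the 10 members, Foxs1, Col1a1, Eln and, of the 30 listed genes of collagen maturation, those called the same way in both clones and the largest and smallest called change in WT cells. P3h1, P4ha3, Pcolce, the markers Nt5e, Thy1 and Col2a1 and the genes overlapping members fall outside this rule and were named after their values were seen. Marker, HIF and substrate lists are given by counts and ranges. Same-numbered libraries did not deviate together (0 of 45 pairs above a correlation of 0.1), so the numbers were not taken as pairs. Promoter windows are RefSeq sequences; none was read for the other members. Figures were drawn with matplotlib 3.10.9.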

Additional observations from a re-analysis of the deposited data

Results flagged for a closer look

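The response to TGF-β1 + DMII in each clone was set against that of WT cells by the interaction test in edgeR, with Benjamini-Hochberg adjustment and without a fold threshold. By that rule 6 of 10 members passed in clone 1 and 5 in clone 2, where 31.6% and 31.2% of all tested genes did. Values are log2 differences in response, clone minus WT, and both clones are compared with the same WT libraries. In clone 1 they were -0.85 for Lox, -0.74 for Loxl1, 0.64 for Loxl4, 0.67 for Plod1, -0.30 for P4ha1 and -0.36 for P4ha2. In clone 2 they were -0.60 for Loxl1, 1.00 for Loxl3, 0.77 for Loxl4, 0.57 for Plod1 and -0.20 for Plod3. For Loxl4 the positive value means a smaller fall in the clones, since its level fell in all 3 lines.

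Among the other genes of collagen maturation and the 2 named substrates, those that also passed the fold threshold were Tll1 (-1.97 in clone 1 and -1.56 in clone 2), Pcolce2 (-1.93 and -1.48), Eln (-1.41 and -2.48), Tgm2 (-2.45 in clone 1) and Pcolce, an enhancer of propeptide removal (-1.01 in clone 2). Pcolce2 levels in the clones were far above WT before stimulation and close to WT after it. Groups of 3 libraries are too small for a test of single outlying libraries.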

How the results depend on the processing

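Of 1660 recomputed log2 values of the 10 enzymes, 1558 kept their direction and stayed called or uncalled, 26 lost a call, 65 gained one and 11 changed sign. A value that stayed uncalled may still have crossed 1 of the 2 thresholds. Of the 65 gained, all but 5 came from dropping the fold threshold, which raised the called members to 10 in the WT response, 10 and 8 in the responses of clones 1 and 2, 8 and 9 against WT in uninduced and 9 and 8 in stimulated clones 1 and 2, 9 and 8 between the uninduced and stimulated clones, and 6 and 5 in the differences of response. Counts of members called the same way in each clone, which share WT libraries, went from 0 to 7 in uninduced and from 2 to 6 in stimulated cells. The share of all tested genes called the same way in each clone was not counted, so these counts have no background. Without the fold threshold 31.2% to 60.7% of all tested genes were called, depending on the comparison. The collagen maturation list went to 24 in the WT response, 23 and 23 in uninduced and 20 and 21 in stimulated clones.

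A test against the fold threshold itself (glmTreat) left 0 members in uninduced clone 1 against WT, 0 between the uninduced clones, 1 between the stimulated clones, 0 in the clone 2 difference of response, and 3 list genes in stimulated clone 2. In the same order, glmTreat called 1278, 542, 643, 455 and 1546 of all 14317 tested genes. The main rule had called 2155, 1241, 1429, 1124 and 2418 of them. The 9 member calls lost were those of Loxl2 in clone 1 (its response, against uninduced WT and against uninduced clone 2), Loxl3 in clone 2 (against uninduced WT and the difference of response), P4ha1 in stimulated clone 2 against WT and between the stimulated clones, and Loxl4 between the clones in both conditions. Fitting only the groups compared left 0 members in uninduced clone 1 against WT and 0 in the clone 2 difference of response. Over all genes tested in these fits, 1803 of 13326 and 1102 of 13919 were called. Testing every gene with a count also left 0 members in the clone 2 difference of response, where 1208 of 25899 genes were called. Leaving out libraries in turn gave 0 to 1 members in uninduced clone 1 against WT, 1 to 2 between the uninduced clones and 0 to 1 in the clone 2 difference of response. Calls over all genes were not counted with libraries left out, so these ranges have no background. The cause of the lost calls was not tested.

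The sign changes were all in uncalled values near 0, and values with libraries left out in turn are given as ranges. For Loxl2 they were -0.26 to 0.58 in uninduced clone 2 against WT, -0.19 to 0.56 in the clone 1 difference of response, -0.12 to 0.46 in the clone 2 response and -0.179 to 0.018 in stimulated clone 1 against clone 2. For Loxl1 they were -0.0222 to 0.0502 in the clone 2 response, which was 0.0049 in a fit of the groups compared, and -0.0298 to 0.0427 between the stimulated clones. For Loxl3 they were -0.0745 to 0.0355 in stimulated clone 2 against WT.

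With the replicate number as a block, 5 members stayed called in the WT response, and no count of called members or list genes changed. Family shares without division by length are higher for Lox, at 65.1% and 82.6% in uninduced and stimulated WT cells. Depth limits Loxl2, with 8 to 98 counts per library, whereas every other member had at least 110 counts in every library.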
